A study of Mus musculus with 38 samples.

Results

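RUNX1 sites that were occupied in lymphoid progenitors, were missing early after Notch stimulation and lay on a CTCF peak are described here. They were chosen by peak presence alone. A site was a reproducible LP RUNX1 peak that HOMER, the peak caller, did not annotate as promoter, with no base shared with a Phase 1 RUNX1 peak and at least 1 bp shared with an LP CTCF peak. Of 22883 LP RUNX1 sites outside promoters, 1807 met this rule. The overlaps with Phase 1 RUNX1 and with LP CTCF therefore defined the sites and are not results. The sites are called LP-specific RUNX1/CTCF sites below. They were compared with 3056 LP-specific RUNX1 sites without an LP CTCF peak, with 2918 RUNX1 sites that had an LP CTCF peak and a RUNX1 peak in both stages, and with 35984 LP CTCF peaks outside promoters that had no RUNX1 peak in either stage.

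The lists came from chromatin immunoprecipitation and sequencing (ChIP-seq) of Cas9-LP cells, mouse fetal liver progenitor lines that lack Ebf1, a factor needed for the B lineage, and carry Cas9 at the Rosa26 locus. LP cells were grown on OP9 stroma, and Phase 1 cells were moved to OP9-DLL4 stroma, which displays the Notch ligand DLL4. The groups used were RUNX1, CTCF, Med12, p300 and Notch1-IC ChIP in LP and in Phase 1, Notch1-IC in Phase 2 (later on OP9-DLL4), RUNX1 in LP cells with guide RNAs against Ctcf (sgCTCF) or a control (sgCont), RUNX1 in Phase 1 cells with sgCont or sgMed12, and Med12 in Phase 1 cells with sgCont or sgCbfb. All of these groups, controls included, lacked Ebf1 and carried Cas9, and the guide groups were transduced with retrovirus. Each of the 17 lists combined 2 replicates, so no value per replicate was used here. Peaks were the units counted, and the tests and intervals cover counting error only, with no error between cultures. The number of reads behind each list was not used here.

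RUNX1 is a DNA-binding factor that pairs with CBFβ and recruits coactivators or corepressors at blood cell genes. CTCF is a zinc finger protein that binds a long motif, halts cohesin at the base of chromatin loops and occupies largely the same places in many cell types. Med12 belongs to the kinase module of Mediator, the complex that links enhancers to RNA polymerase II, and p300 acetylates histones at active enhancers.

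Sequences around the best CTCF motif match are given below for sites around 6 genes, where the match lay from 4 to 130 bp from the RUNX1 center. Only sites with a match were used, here and for the commonest bases. The motif in them therefore follows from that choice and is not a result. The match was scored with a 20-base matrix built from 2748 matches in promoter CTCF peaks, with a threshold that 5% of flanking windows passed. The commonest base at each position of the match in the 1537 LP-specific RUNX1/CTCF sites with a match in the 340 bp around the RUNX1 center spelled GTGGCCACCAGGGGGCGCCA, shown because it gives the core that CTCF reads. The 11 sites below lie around Notch3, Lck, Zap70, Tcf7, Thy1 and Hes1, genes switched on by Notch or typical of T cells. They are given 5′ to 3′ on the strand of the match (GRCm38, the mm10 build, sequence from RefSeq), with the match in capitals.
Notch3 coding exon, chr17:32143345-32143404, plus strand: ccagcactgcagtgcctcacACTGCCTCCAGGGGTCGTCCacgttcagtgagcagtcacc
Past the end of Notch3, chr17:32118617-32118676, minus strand: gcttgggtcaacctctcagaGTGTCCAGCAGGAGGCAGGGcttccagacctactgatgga
Between Notch3 and Hsf2bp, chr17:32075322-32075381, plus strand: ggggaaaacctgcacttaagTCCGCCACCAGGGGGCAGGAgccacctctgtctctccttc
Between Notch3 and Hsf2bp, chr17:32073481-32073540, minus strand: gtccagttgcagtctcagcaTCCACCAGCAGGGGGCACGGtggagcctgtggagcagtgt
Before Lck, chr4:129585361-129585420, plus strand: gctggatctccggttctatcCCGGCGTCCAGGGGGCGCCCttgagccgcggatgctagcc
Lck intron, chr4:129549445-129549504, plus strand: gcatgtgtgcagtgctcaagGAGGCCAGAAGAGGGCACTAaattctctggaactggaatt
Before Zap70, chr1:36744763-36744822, minus strand: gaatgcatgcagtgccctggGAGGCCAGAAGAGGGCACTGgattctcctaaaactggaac
Further before Zap70, chr1:36737478-36737537, plus strand: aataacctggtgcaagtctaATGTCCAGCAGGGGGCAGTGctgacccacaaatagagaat
Tcf7 intron, chr11:52262119-52262178, plus strand: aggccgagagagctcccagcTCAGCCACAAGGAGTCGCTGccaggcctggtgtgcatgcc
Past Thy1, in a Usp2 intron, chr9:44076915-44076974, plus strand: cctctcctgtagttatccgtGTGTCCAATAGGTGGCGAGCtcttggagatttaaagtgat
Past Hes1, near Cpn2, chr16:30236513-30236572, minus strand: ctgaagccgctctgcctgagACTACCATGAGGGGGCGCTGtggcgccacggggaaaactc
None of these 11 stretches held the RUNX string (TGTGGTT or TGCGGTT, searched on both strands). Of all 1807 sites, 9.24% held it in the 200 bp around the RUNX1 center, and the stretches are only 60 bases around the CTCF match. Its absence here therefore cannot be read as a trait of the sites at these genes. The Lck intron and the nearer Zap70 stretch were identical at 43 of 60 bases, the closest pair among the stretches compared, and the Lck intron peak was annotated as a B2 element, a short retrotransposon of rodents that often carries a CTCF motif.

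The LP-specific RUNX1/CTCF sites joined weak RUNX1 peaks to strong CTCF peaks. The normalized peak score of RUNX1, which ranks peaks within a list, ran from 15 to 193.2 with a median of 22.4, and the median site stood at the 17.7th percentile of the LP RUNX1 list. LP-specific sites without CTCF had nearly the same median RUNX1 score, 22.3, whereas sites of both stages with CTCF had a median of 52.95. The CTCF peak under the LP-specific RUNX1/CTCF sites had a median score of 208.4, at the 89.6th percentile of the LP CTCF list. The corresponding medians were 71.4 at RUNX1 sites of both stages and 60.3 at CTCF peaks without RUNX1.

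CTCF score was then tested as the share of sites whose CTCF peak was in the top quintile of the whole LP CTCF list, with scores from 159.9. This share was 72.6% (95% Wilson interval 70.5% to 74.6%) at LP-specific RUNX1/CTCF sites and 34.2% (32.5% to 36.0%) at sites of both stages with CTCF. The odds ratio was 5.09, with an adjusted p-value of 2.44e-148 in a two-sided Fisher's exact test (Benjamini-Hochberg over 24 planned tests). Counted from the CTCF side, 72.8% of 1799 CTCF peaks at these sites and 15.2% of the 35984 CTCF peaks without RUNX1 were in that quintile, with an odds ratio of 14.9 and a p-value returned as 0. Among the LP-specific RUNX1/CTCF sites, RUNX1 and CTCF scores were weakly related across sites (Spearman's rho 0.29, n = 1807), and at sites of both stages the coefficient was -0.12 (n = 2918). The points share the same 2 lists, and no test was made of these coefficients.

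When CTCF peaks outside promoters were ranked among themselves, LP-specific RUNX1 gathered on the strongest. In the top quintile, 1333 of 8303 CTCF peaks (16.1%, interval 15.3% to 16.9%) held an LP-specific RUNX1 site. In the next quintile the share was 2.87%, and in the lower quintiles it was 1.13%, 0.771% and 0.843%. RUNX1 sites of both stages followed another course, with 12.01% in the top quintile, 3.77% in the next and 7.06% in the lowest. Phase 1-specific RUNX1 sites with Phase 1 CTCF occupied 1.76% of the top quintile and 0.783% of the lowest.

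**Figure D1:**
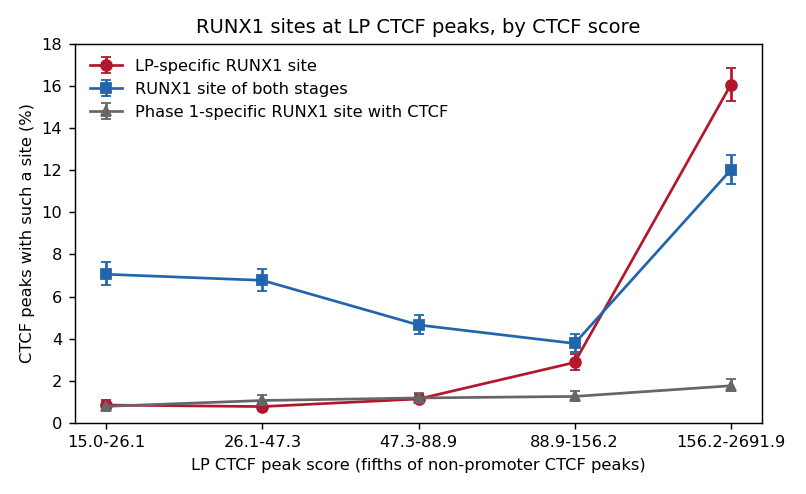
Share of LP CTCF peaks outside promoters (y axis, %) that overlapped an LP-specific RUNX1 site, a RUNX1 site of both stages or a Phase 1-specific RUNX1 site with Phase 1 CTCF, in quintiles of LP CTCF score (x axis); bars are 95% Wilson intervals. The LP-specific share stays under 3% up to the fourth quintile (2.87%) and reaches 16.1% in the highest, while the share of both-stage sites is 7.06% in the lowest quintile and 12.01% in the highest.

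Strong CTCF peaks were more common in the LP lists of the other factors as well. Of peaks outside promoters, 10.1% of LP RUNX1, 10.4% of LP p300 and 9.42% of LP Med12 peaks overlapped an LP CTCF peak of the top quintile. In the Phase 1 lists the values were 3.93%, 5.02% and 3.35%. In Phase 1 cells with guide RNAs, 7.62% of sgCont Med12 peaks and 24.4% of sgCbfb Med12 peaks did so. Stage and library cannot be told apart in these lists, and the part that a difference between libraries has in the site counts was not tested.

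**Figure D2:**
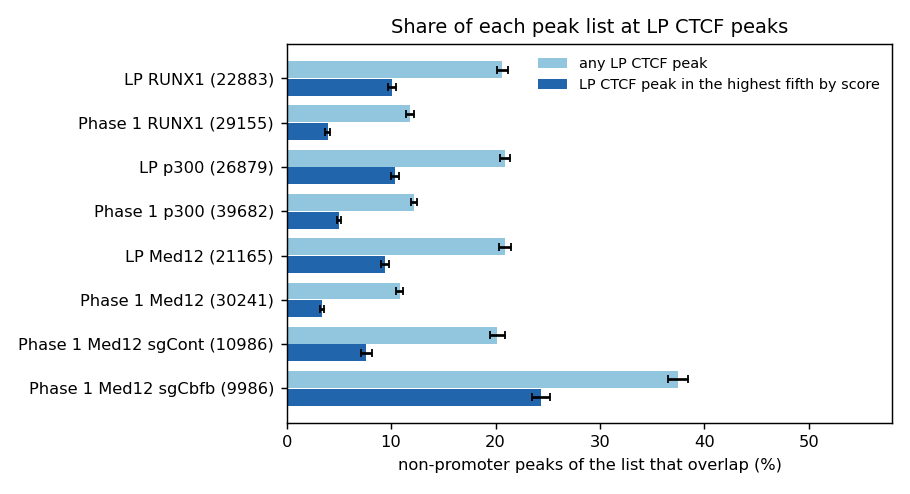
Share of the non-promoter peaks of each list (number in brackets) that overlapped any LP CTCF peak, and an LP CTCF peak in the top quintile by score (x axis, %); bars are 95% Wilson intervals. Each LP list has a larger share at strong CTCF peaks than the Phase 1 list of the same factor (RUNX1 10.1% and 3.93%), and the sgCbfb Med12 list has the largest of the 8 lists shown, at 24.4%.

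CTCF stayed at these sites when RUNX1 was no longer called. A Phase 1 CTCF peak overlapped 1717 of 1807 sites (95.02%, interval 93.9% to 95.9%), against a background of 20.1% over all LP RUNX1 sites outside promoters. The rule required an LP CTCF peak, which only 20.6% of those background sites had, so that gap is not a result. Over all LP CTCF peaks outside promoters, 91.0% had a Phase 1 CTCF peak. At RUNX1 sites of both stages with LP CTCF the share was 81.2%, with an odds ratio of 4.43 and an adjusted Fisher p of 2.04e-46. The odds ratio was 2.06 after matching on RUNX1 score and 1.79 at a minimum score of 30. LP CTCF score also differed between these groups (medians 208.4 and 71.4), and this comparison was not matched on it. The rank of CTCF was also alike in the 2 lists, with a median at the 90.2nd percentile in LP and the 89.3rd in Phase 1 for the 1717 sites. The 90 sites without Phase 1 CTCF had weak LP CTCF peaks, with a median score of 25.5. Against CTCF peaks without RUNX1 the odds ratio was 1.79 (95.2% and 91.7%, adjusted Fisher p 3.16e-08), but it turned to 0.31 when peaks were matched on CTCF score (Mantel-Haenszel over 5 classes). In the top quintile nearly every CTCF peak was kept, 99.6% with the LP-specific RUNX1 site and 99.3% without RUNX1. In the lowest quintile 32.9% of 70 CTCF peaks with the site were kept, compared with 69.6% of 7512 without RUNX1.

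The CTCF motif lay close to the RUNX1 summit. In the 200 bp around the RUNX1 center, 1396 sites (77.3%, interval 75.3% to 79.1%) had a matrix match, compared with 6.92% in flanking windows 2 kb away and 15.8% over all LP RUNX1 sites. Only 20.6% of all LP RUNX1 sites had the LP CTCF peak that the rule required, so the 15.8% is not a like comparison. The flanking windows were not chosen for a CTCF peak either, so the gap to 6.92% follows from the rule and is not a result. RUNX1 sites of both stages with CTCF had a match at 39.8%, with an odds ratio of 5.14 and an adjusted Fisher p of 1.49e-144. The odds ratio was 2.94 after matching on RUNX1 score and 3.19 in 100 bp. These groups also differed in LP CTCF score (medians 208.4 and 71.4), on which this comparison was not matched. Within the 1537 sites with a match in 340 bp, the median distance of the RUNX1 center from the match was 39 bp, and 61.9% (59.4% to 64.3%) lay within 50 bp. At sites of both stages the median was 67 bp and 36.7% (34.3% to 39.1%) lay within 50 bp. The LP CTCF center was at a median of 10 bp, and the LP Med12 and p300 centers, where present, were at 41.5 and 40 bp.

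**Figure D3:**
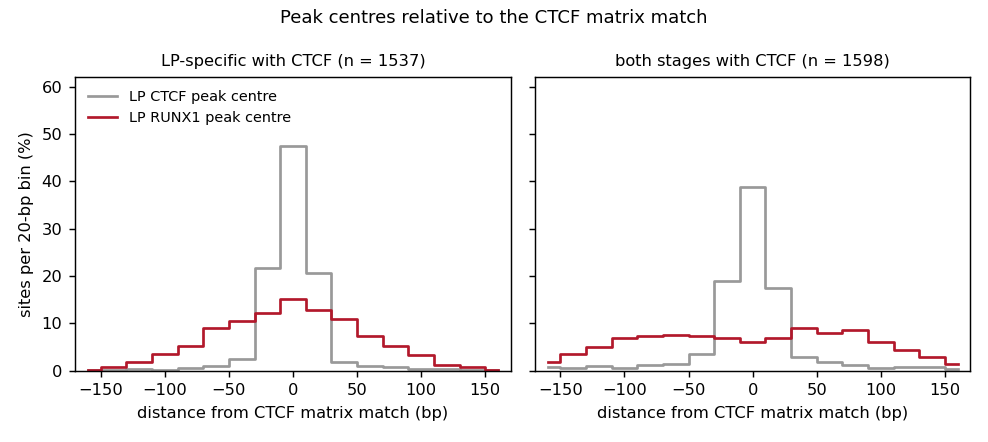
Distribution of LP RUNX1 and LP CTCF peak centers around the best CTCF matrix match (x axis, bp; y axis, percent of sites per 20-bp bin), for 1537 LP-specific RUNX1/CTCF sites and 1598 RUNX1 sites of both stages with CTCF. RUNX1 centers of the LP-specific sites pile up on the match (median distance 39 bp), whereas those of both stages are spread over the window (median 67 bp).

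The RUNX string was scarce. It was found in the 200 bp around the center of 167 sites (9.24%, interval 7.99% to 10.7%), while 5.98% (5.25% to 6.80%) of the flanking windows and 27.5% of all LP RUNX1 sites held it. LP-specific sites without CTCF had it at 17.9% and sites of both stages with CTCF at 23.4%, with odds ratios of 0.47 and 0.33 and adjusted Fisher p-values of 7.22e-17 and 3.09e-37. The second odds ratio was 0.55 with promoters kept. The 167 sites with the string had a median RUNX1 score of 22.0, and the 1640 without it had 22.4. Of the 1807 sites, 129 held both the RUNX string and a CTCF match. Compared with CTCF peaks without RUNX1, the string was less frequent (8.73% and 12.8%, odds ratio 0.65, adjusted Fisher p 1.31e-07), and this turned around when CTCF score was matched (odds ratio 1.37). In the top quintile of CTCF score, 6.68% (5.46% to 8.15%) of CTCF peaks with the LP-specific site and 4.72% (4.21% to 5.30%) of those without RUNX1 carried the string. The share of CTCF peaks with a matrix match was 86.3% at these sites and 86.2% at CTCF peaks without RUNX1, an odds ratio of 1.01 with an adjusted Fisher p of 0.861. After matching on CTCF score the odds ratio was 0.52, with a Mantel-Haenszel p-value returned as 0, so a match was then less frequent at these sites. The gap was small in the top quintile of CTCF score, which held 1333 of the 1799 CTCF peaks at these sites (92.7% and 93.7%). It was larger in the lowest quintile, with 47.1% of 70 CTCF peaks at these sites and 80.6% of 7509 without RUNX1.

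Coactivators were present in LP at most of the sites. LP Med12 overlapped 1062 sites (58.8%, interval 56.5% to 61.0%), with a background of 80.6% over all LP RUNX1 sites, and LP p300 overlapped 1297 (71.8%, interval 69.7% to 73.8%), with a background of 88.8%. Both peaks were found at 941 sites, p300 alone at 356, Med12 alone at 121 and neither at 389. RUNX1 score followed this order in part, with medians of 24.8, 20.8, 20.1 and 19.3. LP-specific sites without CTCF had slightly more, 62.7% for Med12 and 78.0% for p300, with odds ratios of 0.85 and 0.72 and adjusted Fisher p-values of 0.00703 and 1.5e-06. RUNX1 sites of both stages with CTCF, which had stronger RUNX1 peaks, reached 91.5% and 95.6%, with odds ratios of 0.13 and 0.12 (adjusted Fisher p 1.08e-155 and 1.04e-118) that were 0.40 and 0.29 after matching on RUNX1 score. CTCF peaks without RUNX1 rarely had either, with Med12 at 1.503% and p300 at 3.68%, and the odds ratios of 92.9 and 66.1 fell to 35.3 and 22.1 after matching on CTCF score, with p-values returned as 0.

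In the Phase 1 lists from cells without guides, the coactivators parted. Phase 1 Med12 overlapped 156 sites (8.63%, interval 7.42% to 10.02%), with a background of 73.4%, and Phase 1 p300 overlapped 526 (29.1%, interval 27.1% to 31.2%), with a background of 76.4%. Of the 1062 sites with LP Med12, 130 (12.2%, interval 10.4% to 14.3%) had Med12 in Phase 1. At LP-specific sites without CTCF the share was 22.2%, an odds ratio of 0.49 with an adjusted Fisher p of 1.43e-11. The sgCont Med12 list of Phase 1 ran opposite, with 12.8% of these 1062 sites and 5.32% of LP-specific sites with LP Med12 but no CTCF. That sgCont difference was not tested. For p300 the share was instead higher at LP-specific RUNX1/CTCF sites. Of the 1297 sites with LP p300, 488 (37.6%, interval 35.0% to 40.3%) had p300 in Phase 1. At LP-specific sites without CTCF the share was 28.5%, an odds ratio of 1.51 with an adjusted Fisher p of 2.94e-08. That odds ratio was 1.14 (adjusted Fisher p 0.0467) with equally long RUNX1 lists and 1.27 (adjusted Fisher p 0.0257) at a minimum score of 30. Counted over all sites, the odds ratio for Phase 1 p300 was 1.30 (adjusted Fisher p 0.000112), but it was 0.98 when equally long RUNX1 lists were taken from both stages and 1.11 (adjusted Fisher p 0.301) at a minimum score of 30. In Phase 1, 416 sites had p300 without Med12, 46 had Med12 without p300, 110 had both and 1235 had neither. RUNX1 sites of both stages with CTCF carried Phase 1 Med12 at 86.2% and Phase 1 p300 at 91.4%, and the Fisher p-values for both differences were returned as 0. After matching on LP RUNX1 score the odds ratios were 0.034 for Med12 and 0.071 for p300. By the rule, sites of both stages have a Phase 1 RUNX1 peak and LP-specific RUNX1/CTCF sites lack one. The backgrounds also include the sites of both stages. These differences in Phase 1 therefore cannot be told apart from the choice of sites.

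Med12 was present at many of these sites in Phase 1 cells with guides against Cbfb, whose product stabilizes RUNX proteins on DNA. The sgCbfb Med12 list overlapped 778 sites (43.1%, interval 40.8% to 45.4%), with a background of 32.7% over all LP RUNX1 sites. The sgCont list, which was of similar length (19053 and 18099 peaks), overlapped 174 (9.63%, interval 8.35% to 11.1%), with a background of 41.8%. Med12 was in sgCbfb and not in sgCont at 624 sites and the reverse at 20. LP-specific sites without CTCF showed sgCbfb Med12 at 15.4% and sgCont Med12 at 4.32%. The odds ratio between both kinds of LP-specific site was 4.16 for sgCbfb (adjusted Fisher p 1.48e-98 over 3 added comparisons) and 2.36 for sgCont (adjusted Fisher p 6.8e-13). At RUNX1 sites of both stages with CTCF the shares were 57.4% and 64.9%. These comparisons, and that of sgCbfb Med12 with CTCF peaks without RUNX1, were added after the lists had been seen.

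The sgCbfb peaks were found mostly, but not only, where LP cells had Med12. Of the 778 sites, 530 (68.1%, interval 64.8% to 71.3%) had LP Med12, 88 (11.3%) had Phase 1 Med12 and 281 (36.1%) had Phase 1 p300. Over all 1807 sites the shares were 58.8%, 8.63% and 29.1%. LP-specific sites without CTCF had LP Med12 at 85.7% of those with sgCbfb Med12 and at 62.7% of all. At sites of both stages with CTCF these shares were 95.9% and 91.5%. Among the 745 LP-specific RUNX1/CTCF sites without LP Med12, 248 (33.3%, interval 30.0% to 36.8%) had sgCbfb Med12. The share was 5.88% (4.65% to 7.40%) at LP-specific sites without CTCF or LP Med12. At sites of both stages with CTCF and no LP Med12, 68 of 249 (27.3%, interval 22.2% to 33.2%) had it. The sgCbfb list also held CTCF peaks with no RUNX1 peak in either stage. It overlapped 1222 of these (3.396%) and 773 of the 1799 CTCF peaks at LP-specific RUNX1/CTCF sites (43.0%), with an odds ratio of 21.4 that fell to 5.86 after matching on CTCF score. In the top quintile of CTCF score, 17.3% (16.4% to 18.3%) of CTCF peaks without RUNX1 had sgCbfb Med12, compared with 5.15% (4.61% to 5.76%) that had LP Med12. The larger share of the sgCbfb list at strong CTCF peaks in general, 24.4%, moves with this count, and its part was not tested. The study describes the ChIP-seq of guide-transduced cells as made from few cells and noisier than usual.

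**Figure D4:**
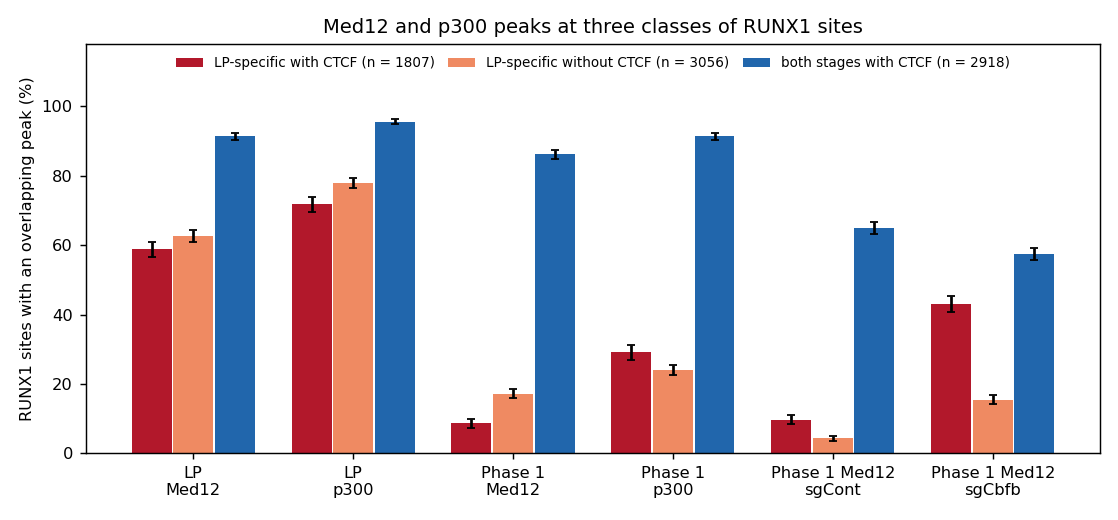
Share of RUNX1 sites (y axis, %) with an overlapping Med12 or p300 peak in 6 lists (x axis), for LP-specific sites with CTCF (n = 1807), LP-specific sites without CTCF (n = 3056) and sites of both stages with CTCF (n = 2918); bars are 95% Wilson intervals. At LP-specific sites with CTCF, Med12 is at 58.8% in LP, 8.63% in Phase 1, 9.63% in Phase 1 sgCont and 43.1% in Phase 1 sgCbfb.

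Lists that could show what CTCF loss does to RUNX1 hardly reached these sites. The LP RUNX1 lists of sgCont and sgCTCF cells, with 975 and 874 peaks, overlapped 0 of 1807 sites, which allows a share of up to 0.166% in each. Over all LP RUNX1 sites outside promoters the shares were 1.76% and 1.77%. No statement on CTCF loss can be made for them. Phase 1 RUNX1 in sgCont and in sgMed12 cells overlapped 1 site, the same for both, with a background of 5.62% and 6.97% over all LP RUNX1 sites. It lies in the coding exon of Tsc22d2, on chromosome 3 from 58416328 to 58416668, with an LP RUNX1 score of 60.2. LP Notch1-IC peaks, found at 5.71% of all LP RUNX1 sites, overlapped 0 of 1807. Notch1-IC of Phase 1 and of Phase 2 overlapped 1 site, again the same for both lists, with a background of 0.35% and 0.787%. It lies on chromosome 8 from 84823703 to 84824043, at -1.05 kb from the start of Dand5. That site had an LP RUNX1 score of 35.1 and an LP CTCF score of 236.7, with Med12 and p300 in both stages and no Med12 peak with sgCont or sgCbfb.

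Most sites lay away from genes' starts but nearer to them than LP-specific sites without CTCF. HOMER annotated 838 as intergenic, 746 as intronic, 84 at the end of a gene, 69 in exons, 42 in 3′ UTRs, 14 in 5′ UTRs and 14 in non-coding transcripts. The median distance to the nearest start was 12.5 kb, compared with 20.8 kb at LP-specific sites without CTCF and 15.6 kb at sites of both stages with CTCF. Sites in exons or UTRs or non-coding transcripts made up 7.69%, compared with 5.53% at LP-specific sites without CTCF, an odds ratio of 1.42 (adjusted Fisher p 0.0037), with a background of 5.94%. The odds ratio was 1.24 (adjusted Fisher p 0.0845), no longer past the threshold of 0.05, when RUNX1 and CTCF centers had to lie within 100 bp, and 2.45 at a minimum score of 30. Chromosome 11 held 195 sites, or 10.7% of its 1828 LP RUNX1 sites, and chromosome X held 24, or 6.74% of its 356, compared with 7.9% over all chromosomes. The nearest Phase 1 RUNX1 center was at a median of 7.16 kb, and 108 sites had one within 1 kb. The nearest other such site was at a median of 122 kb, and 145 sites (8.02%) had one within 10 kb.

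Retrotransposons of the SINE class were present at 169 sites (9.35%, interval 8.09% to 10.8%), and 152 of these were B2 elements. LP-specific sites without CTCF had SINEs at 3.34% and sites of both stages with CTCF at 3.91%, with odds ratios of 2.99 and 2.54 and adjusted Fisher p-values of 1.59e-17 and 1.05e-13. The background over all LP RUNX1 sites was 3.69%. The odds ratio of 2.54 was 1.52 after matching on RUNX1 score (adjusted p 0.0085) and 4.36 with promoters kept. LP CTCF peaks without RUNX1 were far richer in SINEs, at 31.8% (31.3% to 32.3%), compared with 11.01% (9.64% to 12.5%) of the CTCF peaks at LP-specific RUNX1/CTCF sites. No test was made of that last difference.

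The sites with the highest RUNX1 scores were not the typical ones. The 10 highest scores ran from 97.4 to 193.2, and their CTCF peaks were weak, with scores from 17.7 to 101.6. The highest, 193.2, lay between genes on chromosome 17 from 84119536 to 84119876, 68.2 kb past the start of Zfp36l2, an RNA-binding protein of lymphocytes, with LP Med12 and p300 and neither in Phase 1. It held a RUNX string and no CTCF match in 340 bp. The others lay in a coding exon of the histone gene Hist1h1c (147.3), in introns of Colgalt1 (138.9), Lrp1 (123.6), Grk6 (116.5), Cage1 (115.5), Chst11 (110.4), Itpk1 (107.1) and Psma6 (106.0), and in the coding exon of Inafm1 (97.4). Histone genes have near-identical copies, so reads at Hist1h1c could be shared. The Grk6 and Itpk1 sites also held a RUNX string. A CTCF match within 340 bp was found at 4 of the 10. The Grk6 and Inafm1 matches lay outside the overlapping LP CTCF peak, and the Hist1h1c and Psma6 matches lay inside it. All 4 are shown, from the same build and with the match in capitals, to set beside the sites of the T cell genes.
Hist1h1c, chr13:23738860-23738919, minus strand: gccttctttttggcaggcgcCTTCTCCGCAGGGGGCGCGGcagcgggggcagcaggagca
Grk6, chr13:55449790-55449849, minus strand: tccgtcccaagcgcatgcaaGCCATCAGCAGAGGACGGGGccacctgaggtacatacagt
Psma6, chr12:55388710-55388769, minus strand: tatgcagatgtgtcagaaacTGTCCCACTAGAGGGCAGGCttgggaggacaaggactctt
Inafm1, chr7:16273079-16273138, plus strand: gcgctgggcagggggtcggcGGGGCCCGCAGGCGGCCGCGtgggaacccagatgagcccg

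The 5 sites with the highest CTCF scores had RUNX1 scores from 44.1 to 93.6, all above the upper quartile of 29.25. The 2 highest CTCF scores, 946.1 and 845.2, lay in introns of Gm47283 on chromosome Y, in the part of the Y that pairs with the X, where reads may match both chromosomes. The others lay between genes near Lbr (563.3) and Ndufa4l2 (560.3) and in a UTR of H2-DMa (593.9), an antigen-loading chaperone of the MHC class II pathway. The last 3 each had LP Med12 and p300, and also Med12 with sgCont and with sgCbfb. Of the sites without Phase 1 CTCF, the strongest LP CTCF peaks lay near Nanos3 (256.6), Neurl1a (231.0) and Phlda2 (230.6).

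Notch3, which encodes a Notch receptor that is itself a Notch target, had 4 LP-specific RUNX1/CTCF sites among 10 LP RUNX1 sites outside promoters in a window that reached 50 kb past either end of the gene. Their RUNX1 scores were 53.7 in a coding exon, 71.7 at 48.1 kb, 41.2 at 91.4 kb and 36.7 at 93.4 kb from the start, in the direction of transcription. The CTCF scores were 375.2, 82.1, 237.9 and 245.9 in the same order. LP Med12 and p300 overlapped each of the 4 and Phase 1 Med12 overlapped 0. Phase 1 p300 overlapped 1, the site at 93.4 kb. The exon site had Med12 in both the sgCont and the sgCbfb list, and the site at 93.4 kb in the sgCbfb list. Each of the other 7 LP RUNX1 peaks of the window, 1 of them at a promoter, had a Phase 1 RUNX1 and a Phase 1 Med12 peak.

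**Figure D5:**
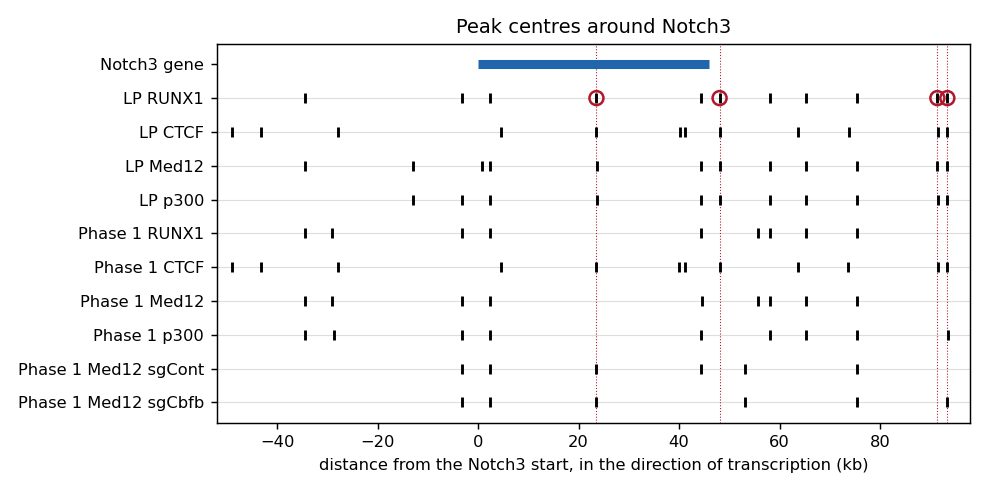
Peak centers of 10 lists (rows) within 50 kb of Notch3, by distance from the Notch3 start in the direction of transcription (x axis, kb); circles and dotted lines mark the 4 LP-specific RUNX1/CTCF sites and the blue bar the gene. CTCF peaks stand at each of the 4 sites in LP and in Phase 1, Med12 and p300 in LP, and of Phase 1 p300 only the site at 93.4 kb has a peak.

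Lck, the kinase that starts T cell receptor signaling, had 2 such sites. The one at -11.7 kb from its start had scores of 37.7 for RUNX1 and 266.6 for CTCF, with Med12 and p300 in LP, p300 in Phase 1 and Med12 with sgCont and sgCbfb. The one in an Lck intron had scores of 18.8 and 171.3, and of the coactivator lists it was found in that of sgCbfb Med12. Zap70, the kinase that binds the phosphorylated receptor chains, had 2 sites at -17.1 and -24.3 kb from its start, in introns of 4933424G06Rik, with RUNX1 scores of 42.2 and 29.4 and CTCF scores of 212.8 and 224.3. Both had Med12 and p300 in LP and p300 without Med12 in Phase 1. Thy1, a surface glycoprotein of T cells, had 1 site 33.6 kb past its start (18.4 and 156.3), found in the sgCbfb Med12 list. Tcf7, which encodes TCF1, had 1 intronic site at 20.8 kb from its start (24.8 and 185.2) with Med12 and p300 in LP and neither in Phase 1. The window to 300 kb past Hes1, a repressor induced by Notch, held 1 site near Cpn2 (25.9 and 274.0) with p300 in both stages. The windows of Il2ra and Gata3 held 0 such sites among 4 and 8 LP RUNX1 sites.

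Gene lists were counted by genes with such a site in the gene or within 50 kb of it. Over 21938 protein-coding genes of GENCODE M21, 21.2% had one, and 63.6% had any LP RUNX1 site outside promoters. Among T cell receptor signaling and surface genes, 12 of 21 had one (57.1%, interval 36.5% to 75.5%), and 20 had any LP RUNX1 site. Longer genes have wider windows, and the median gene length of this list was 21.9 kb, compared with 17.4 kb over all genes. They included Lck, Zap70, Thy1, the adaptors Lat and Lcp2, the coreceptor Cd4, the costimulatory receptor Cd27 and the receptor chains Cd247, Cd3d, Cd3e and Cd3g. The Cd3 genes shared 1 site, with scores of 36.3 for RUNX1 and 249.2 for CTCF, so the list rested on 13 sites. Of the 13, 9 had Med12 and 11 had p300 in LP, 1 had Med12 and 7 had p300 in Phase 1, and 6 had sgCbfb Med12. Over all 1807 sites these shares were 58.8% and 71.8% in LP, 8.63% and 29.1% in Phase 1, and 43.1%. The Cd247 site (32.0 and 250.1), in an intron of Creg1, had p300 in both stages and Med12 with both guides. The 2 sites of Cd4 (44.0 and 33.2) had Med12 and p300 in LP and neither in Phase 1.

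Of Notch pathway genes, 7 of 19 (36.8%) had such a site, and 15 had any LP RUNX1 site. Their median length was 36.4 kb, compared with 17.4 kb over all genes. Besides Notch3, the 7 genes were the target gene Hes5 (RUNX1 23.6, CTCF 373.2), the coactivators Maml2 (23.9 and 124.5) and Maml3 (36.2 and 116.0), the ligand Jag2 (21.9 and 214.1), the ubiquitin ligase Dtx1 (30.0 and 244.1) and the feedback inhibitor Nrarp (41.2 and 32.5). The 10 sites of this list all had LP p300, and 7 had LP Med12, compared with 71.8% and 58.8% over all 1807 sites. The Maml2 and Nrarp sites were the 2 with Phase 1 Med12.

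Of T lineage transcription factor genes, 5 of 17 (29.4%) had a site. These genes were long, with a median of 81.1 kb compared with 17.4 kb over all genes, and all 17 had some LP RUNX1 site. Ikzf1, which encodes Ikaros, had one with a CTCF score of 452.0, and Zbtb7b, which encodes ThPOK, had one with 254.0. The site counted for Cbfb, the partner of RUNX1, lay in a coding exon of Tradd past the end of the gene, had a RUNX1 score of 52.0 and held a RUNX string. The Ets2 site scored 19.2 for RUNX1 and 224.8 for CTCF. Each of the 5 had LP Med12 and p300, and 0 had Phase 1 Med12. Over all 1807 sites the shares were 58.8%, 71.8% and 8.63%.

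Stem, progenitor and myeloid regulators had a site at 6 of 23 genes (26.1%), namely Hoxa9, Hhex, Gfi1b, Cebpe, Csf1r and Mpo. Gfi1b, a repressor of erythroid and megakaryocyte cells, had the strongest CTCF peak of these, 493.7. B lineage genes had one at 4 of 16 (25%), with 1 site shared by Igll1 and Vpreb1, which encode the surrogate light chain, and others at Ly6d and past the 3′ end of Ebf1. The Ebf1 site, 390.9 kb from the gene's start, scored 24 for RUNX1 and 213.8 for CTCF in these cells that lack Ebf1. Of lymphoid cytokine receptors, 1 of 12 (8.33%) had one, Il2rb (44.6 and 371.0), and of CTCF and cohesin genes 2 of 12 (16.7%), Ctcf and Smc3, had 2 sites each. The median gene length of the CTCF and cohesin list was 60.2 kb. All 42 sites of the gene lists kept a Phase 1 CTCF peak, while 29 had LP Med12 and 3 had Phase 1 Med12. Over all 1807 sites, 95.02% had Phase 1 CTCF, 58.8% LP Med12 and 8.63% Phase 1 Med12. No test was made of any list, and the intervals of the smaller lists are wide.

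The sites nearest the edges of the rule were as follows. Just inside it, the LP-specific RUNX1/CTCF sites closest to a Phase 1 RUNX1 peak stood at -13, -15 and -34 bp, a minus sign marking a gap, with RUNX1 scores of 67.3, 24.3 and 22.5. Just outside, 3 sites shared 1, 3 and 9 bp with a Phase 1 RUNX1 peak and had scores of 33.6, 36.3 and 27.8. The smallest overlaps with LP CTCF that still counted were 3, 6 and 8 bp, with RUNX1 scores of 27.1, 116.5 and 24.6. LP-specific sites that stood at -5, -11 and -23 bp from an LP CTCF peak scored 46.5, 63.3 and 63.1. Such edges were rare, since the median overlap with the CTCF peak was 330 bp and 79 sites lay within 500 bp of a Phase 1 RUNX1 peak.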

How the data were processed

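The members, gene lists and tests were chosen with earlier results of these data known. Per the labels, 38 samples formed 19 groups of 2 replicates, of which 34 ChIP samples in 17 groups had peak lists and 4 inputs had none. The authors aligned reads to mm10 with Bowtie 1.1.1, called peaks with HOMER in factor mode and kept those reproducible between replicates. The deposited peak score is the authors' normalized score, with none under 15, and the deposited focus ratio is a fraction of tags in the expected position, which no result here uses. The scale of the score is not stated in the sources used here, so scores were used only within a list. Sequencing settings differ between the labels and the study's methods, and depth per sample is not given in the files.

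Overlap meant at least 1 shared bp. Shares carry 95% Wilson intervals. Two-sided Fisher's exact tests were adjusted over 24 planned tests, and 3 added ones among themselves. Mantel-Haenszel odds ratios used 5 equal classes of RUNX1 score, or of CTCF score where CTCF peaks were compared. A count of 0 allows 3 counts. Quintiles of CTCF score were cut over the whole LP CTCF list for tests (159.9) and over peaks outside promoters for the ranking. The CTCF matrix (20 positions, 3 rounds, 2% pseudocount per base) was trained on 3871 promoter CTCF peaks, starting from 256 matches of a 12-letter consensus. Its pseudocount was raised after a first matrix had favored repeats. Symbols came from RefSeq accessions (1802 of 1807 sites matched), and gene positions from GENCODE M21. Sites were named by rule: the 10 highest RUNX1 scores, the 5 highest CTCF scores, the 3 strongest without Phase 1 CTCF, those in windows of 8 genes and those in short lists, of which 1 gene is not reported here by name. Overlap, Fisher, stratified and matrix code was tested on simulated data. Python 3.11.15, numpy 2.4.6, pandas 2.3.3, scipy 1.17.1, statsmodels 0.14.6, pysam 0.24.0 and samtools 1.23.1 were used. Alternatives were another score minimum, overlap, list length, distance from Phase 1 RUNX1, promoter rule, motif threshold, string and window.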

Additional observations from a re-analysis of the deposited data

How the results depend on the processing

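The 178 alternative values include some counts of sites. Of the 178, 163 kept direction and side of the threshold or, for counts of sites, stayed close to the main count. The number of sites was 614 at a minimum score of 30 and between 1626 and 2069 otherwise. Phase 1 p300 against LP-specific sites without CTCF had odds ratios of 1.11 at a minimum score of 30 and 0.98 with equally long RUNX1 lists. Among sites with LP p300 the odds ratios were 1.27 and 1.14 in the same order. Exon annotation gave 1.24 when centers had to lie within 100 bp, no longer past the threshold. Against CTCF peaks without RUNX1, matching on CTCF score gave 0.31 for Phase 1 CTCF, 0.52 for the CTCF match and 1.37 for the RUNX string. For the same comparison, a minimum score of 30 gave 1.12, 0.78 and 0.80. The CTCF match there was 0.95 with promoters kept (0.946) and with equal lists (0.948), 0.98 at the 1% threshold, 0.80 in 100 bp and 1.51 with the consensus string. The cause was not tested. Peaks that combine replicates, unknown depth and a score cut at 15 limit every count of absence. No paired analysis was possible because each list combines both replicates, and for the same reason no replicate could be left out.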
